A study of Ovis aries with 3 samples.

Results

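Colon-dominant transcripts of the sheep gut are described here, meaning annotated coding transcripts whose level in colon was at least 10 RPKM and at least 3 times the level in both the duodenum and the cecum. RPKM is the read count of a transcript scaled by its exon length and by the total of its library, so levels can be compared between transcripts of different length. The rule kept 219 of 23220 coding transcripts with a colon level of at least 10 RPKM, which is 0.943%. Where transcripts had an identical exon, equal in start, end and reads, only the first by identifier was kept. After 6 transcripts named in the rule had been left out, 71 transcripts remained. Coding transcripts with reads numbered 68818, but these were counted before transcripts with an identical exon were joined, so the 71 are not a share of them. The tissue was intestinal mucosal epithelium of healthy small-tailed Han ewes aged 11 months, taken from duodenum, cecum and proximal colon. Material of 3 animals was pooled into 1 library per region, so there are no replicates, and the sources name no treatment or genetic change. Summed over distinct exons, the read counts ran from 64368455 in cecum to 74984599 in colon. A read can count in more than 1 exon, and these sums exceed the library totals by which RPKM was scaled. They are therefore not the sequencing depth. The members were chosen by these same 3 levels, so their colon levels and folds are a description and carry no test. An interval below covers at most the sampling of reads.

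The large intestine of a ruminant receives digesta from which most nutrients have already been taken, and it absorbs water, salts and short-chain fatty acids made by its microbes. Its lining is covered with mucus secreted by goblet cells, and lymphoid follicles lie in its wall. The proximal colon follows the cecum directly, while the duodenum lies at the other end of the intestine, just after the stomach.

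A gene symbol was available for 33 of the 71 transcripts and 38 are given by their transcript identifier. Their length ran from 385 to 9971 bases, and the median share of that length covered by reads in colon was 98.4%. The median level was 27.22 RPKM in colon, 3.612 in cecum and 2.483 in duodenum. In the colon 5 transcripts exceeded 1000 RPKM, 9 lay between 100 and 1000, and 57 lay below 100, of which 30 were under 20. Together they took 2.49% of the summed exon reads in colon, 0.425% in cecum and 0.202% in duodenum. Because these sums exceed the library totals, the values are shares of exon reads and not of the library. The 5 highest took 79.5% of the colon reads of the whole set. The median ratio of the colon to the higher of the other regions was 5.086, with 14 transcripts at 10-fold or more and 33 under 5-fold. The second highest region was the cecum for 49 transcripts and the duodenum for 22.

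**Figure D1:**
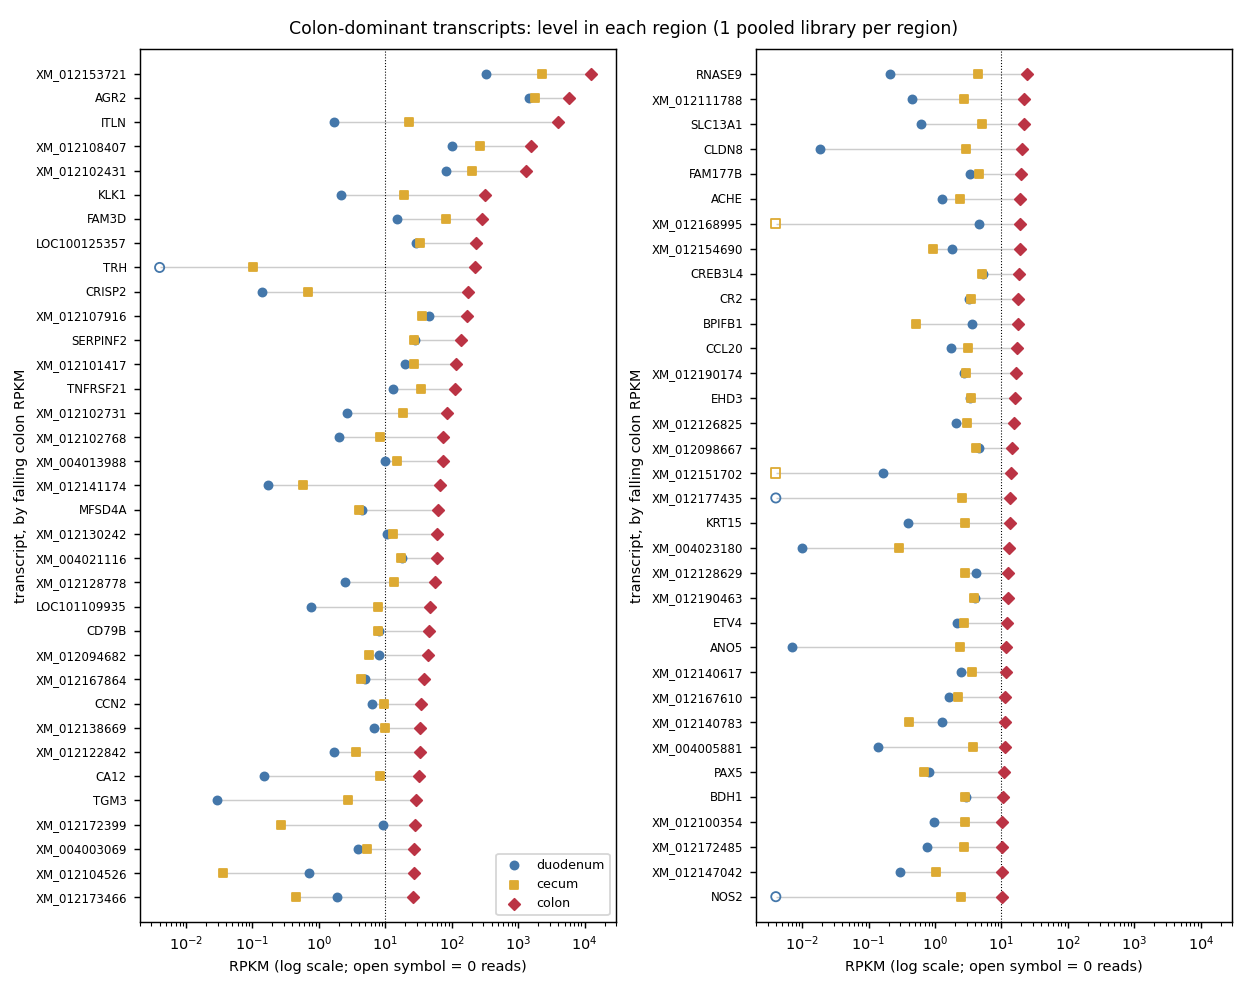
RPKM of 69 of the 71 transcripts (rows, by falling colon level) in duodenum, cecum and colon on a log axis, with the colon limit of 10 RPKM as a dotted line and an open symbol for 0 reads. The colon points run from 12679 RPKM for XM_012153721 down to 10.01 RPKM for NOS2, and the ratio to the higher of the other regions ranges from 3.053 to 2174.

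Among the named transcripts 9 were grouped by name as proteins that are secreted or act in secretion. The group is not complete, since the chemokine CCL20 and the intelectin LOC100125357 were placed elsewhere. The 4 largest ratios of a named transcript to its second region, from 16.60 upwards, were in this group. AGR2, a disulfide isomerase of the endoplasmic reticulum that is needed for mucin folding, had 1460 RPKM in duodenum, 1823 in cecum and 5753 in colon. It was abundant in every region, and its ratio of 3.156 to the cecum was close to the limit of the rule. ITLN, an intelectin that binds sugars on the surface of microbes, had 1.685 RPKM in duodenum, 23.06 in cecum and 3968 in colon. KLK1, tissue kallikrein, a protease that releases kinins, had 2.139 RPKM in duodenum, 19.45 in cecum and 322.8 in colon. For ITLN and KLK1 the cecum lay between the other regions, at 13.68 and 9.093 times the duodenum, and the colon was 172.1-fold (95% exact interval 162.9 to 181.9) and 16.60-fold (15.38 to 17.92) above the cecum.

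TRH, which encodes the precursor of thyrotropin-releasing hormone, was nearly confined to the colon in these libraries. It had 0 reads in duodenum, 7 in cecum and 17690 in colon, and the colon level was 222.5 RPKM. All 3 of its exons carried colon reads over their whole length. The ratio to the cecum was 2174-fold, and since it rests on 7 reads its exact 95% interval ran from 1055 to 5409. Against the duodenum the colon was at least 5569-fold higher, taking 3 reads as the upper limit that a count of 0 allows. CRISP2, a cysteine-rich secretory protein best known from the testis, had 0.1384 RPKM in duodenum, 0.6907 in cecum and 174.0 in colon. Its colon level was 251.9-fold (180.5 to 357.2) above the cecum, where 35.73 reads were counted. TRH, CRISP2, ITLN and the unnamed XM_012141174 were the 4 transcripts with ratios above 100.

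The other transcripts of the secreted group differed less. FAM3D, a cytokine-like protein secreted in the gut, had 14.96, 81.56 and 285.1 RPKM in duodenum, cecum and colon. SERPINF2, the inhibitor of plasmin, had 27.57, 27.51 and 140.1 RPKM in the same order. CCN2, a matrix-associated growth factor also called CTGF, had 6.282, 9.489 and 34.91 RPKM. BPIFB1, a member of the BPI fold family of lipid-binding secretory proteins, had 3.658 RPKM in duodenum, 0.5193 in cecum and 17.66 in colon. It was thus the one named transcript with at least 2 times more in duodenum than in cecum.

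Transport and junction genes formed a second group of 5, and 4 of them stepped up from duodenum to cecum to colon. CA12, a carbonic anhydrase on the cell surface that interconverts carbon dioxide and bicarbonate, had 0.151 RPKM in duodenum, 8.454 in cecum and 32.55 in colon. SLC13A1, a sodium-coupled sulfate carrier, had 0.609, 5.119 and 21.90 RPKM in the same order. CLDN8, a tight junction claudin that limits the leak of sodium between cells, had 0.01833, 2.936 and 20.39 RPKM. The duodenal value of CLDN8 rests on 2 reads, and its cecum exceeded the duodenum by 7.32 on the log2 scale (95% exact interval 5.458 to 10.38). ANO5, a membrane protein of the anoctamin family, had 0.007006, 2.369 and 11.76 RPKM, also with 2 reads in duodenum. MFSD4A, a member of the major facilitator family of transporters, went another way, with 4.537 RPKM in duodenum, 3.967 in cecum and 61.91 in colon. Its colon level was 13.65 times the duodenum, while cecum and duodenum were within 2-fold of each other.

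TGM3 and KRT15, which are best known from stratified epithelia where TGM3 cross-links proteins and KRT15 is a keratin of the basal layer, had the same order. TGM3 had 0.02895 RPKM in duodenum, 2.767 in cecum and 29.20 in colon. KRT15 had 0.3952, 2.855 and 13.46 RPKM. The squamous markers chosen for comparison were near 0, since the 2 of 5 that matched a transcript summed to 0.274, 0.4348 and 1.026 RPKM in duodenum, cecum and colon.

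B lymphocyte genes were the third group. CD79B, the signalling chain of the B cell receptor, had 7.925 RPKM in duodenum, 7.716 in cecum and 45.10 in colon. CR2, a complement receptor of B cells and follicular dendritic cells, had 3.262, 3.478 and 17.66 RPKM. PAX5, the transcription factor that maintains B cell identity, had 0.8111, 0.6816 and 10.99 RPKM, a colon level 13.55 times the duodenum. In these 3 genes cecum and duodenum were within 2-fold of each other, with log2 ratios from -0.25 to 0.09. That the colon stood apart from both was fixed by the rule. CCL20, a chemokine that draws CCR6-bearing B cells and dendritic cells to gut follicles, had 1.761, 3.128 and 17.31 RPKM.

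Markers of antibody-secreting plasma cells had the opposite order. JCHAIN, which joins IgA and IgM subunits, had 6626 RPKM in duodenum, 3659 in cecum and 662.7 in colon, and MZB1, a chaperone of immunoglobulin assembly, had 127.7, 98.09 and 33.36 RPKM. CD79A, the partner chain of CD79B, had 43.80, 30.84 and 50.54 RPKM and did not reach the 3-fold limit. T cell markers were not raised in colon either, since the 4 of 5 that matched summed to 255.4, 166.9 and 143.6 RPKM. In bulk libraries fewer cells of a type and less RNA per cell cannot be told apart, and with 1 library per region a difference between the pieces of tissue sampled cannot be told apart from one between regions.

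**Figure D2:**
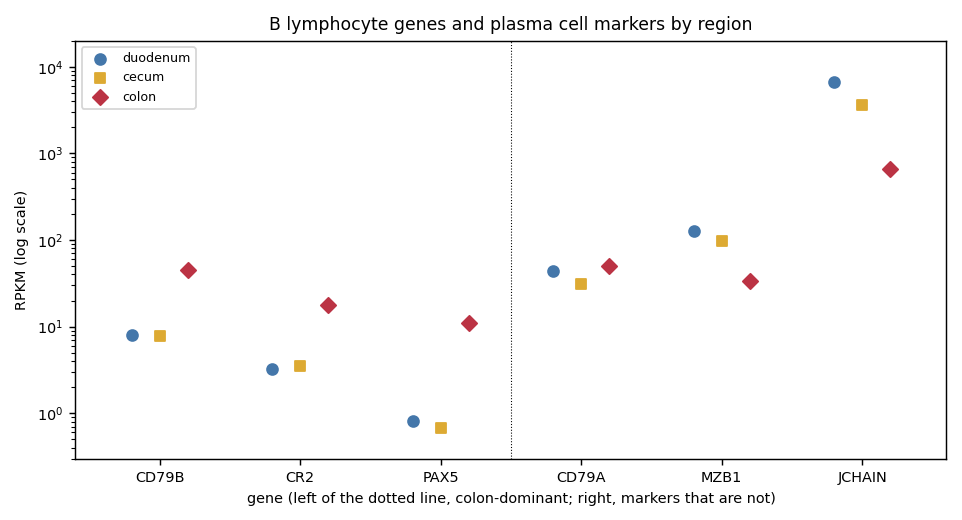
RPKM on a log axis of 3 B lymphocyte genes that are colon-dominant (left of the dotted line) and 3 plasma and B cell markers that are not (right), with 1 point per region. CD79B, CR2 and PAX5 are highest in colon, as the rule requires, with cecum and duodenum close together, whereas JCHAIN and MZB1 are lowest in colon.

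The remaining named transcripts had single roles. NOS2, the inducible nitric oxide synthase, had 0 reads in duodenum, 506.1 in cecum and 2399 in colon, or 2.454 RPKM in cecum and 10.01 in colon. ACHE, which breaks down acetylcholine, had 1.252, 2.381 and 19.07 RPKM in duodenum, cecum and colon. BDH1, the mitochondrial enzyme that interconverts ketone bodies, had 2.924, 2.791 and 10.65 RPKM. For these genes the colon exceeded the cecum 4.078-fold, 8.011-fold and 3.818-fold. TNFRSF21, a death receptor of the TNF receptor family, had 13.28, 34.40 and 110.9 RPKM. Both transcription factors besides PAX5 had cecum and duodenum within 2-fold, CREB3L4 with 5.239, 5.039 and 18.39 RPKM and ETV4 with 2.154, 2.750 and 12.09 RPKM. RNASE9, of the ribonuclease A family, had 0.208, 4.394 and 23.83 RPKM. LOC101109935 had 0.7724, 7.739 and 47.36 RPKM, and it shares exons with a transcript that the rule left out. EHD3, an endocytic recycling protein, and FAM177B had 16.22 and 19.38 RPKM in colon and 3.441 and 4.648 RPKM in cecum.

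Among the unnamed transcripts, XM_012153721 was the highest of all 71. It had 327.2 RPKM in duodenum, 2303 in cecum and 12679 in colon, where it alone took 0.766% of the summed exon reads. All 6 of its exons were at least 3 times higher in colon than in either other region. XM_012108407 had 102.5, 270.8 and 1561 RPKM and XM_012102431 had 82.25, 205.1 and 1319 RPKM. These are not independent, because they share 1009 exon bases, and exon 4 of XM_012108407 (50057720 to 50058691) lies within exon 15 of XM_012102431 (50057644 to 50058691). The positions are those of the deposited files, which give neither a chromosome nor a genome build. XM_012141174, with 0.1735, 0.5697 and 67.75 RPKM, was 118.9-fold (101.7 to 140.3) above the cecum and overlaps a transcript that the rule left out and that has nearly the same reads.

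Whether the cecum or the duodenum came second was not fixed by the rule, although both libraries entered it. The cecum was at least 2 times the duodenum in 30 of the 71 transcripts (42.3%), against 9.28% of the 8783 joined transcripts with at least 10 RPKM in a region. The duodenum was at least 2 times the cecum in 7 (9.86%), against 5.9%, and 34 were within 2-fold. The median log2 ratio of cecum to duodenum was 0.52 over the colon-dominant transcripts and 0.03 over the 8783. The members were chosen for a difference between regions and the 8783 were not, so these comparisons are a description and carry no test. In the 30 transcripts with more in cecum the exact 95% interval of the ratio lay above equal levels for each. The 30 were chosen by that same ratio, so these intervals lend no support to a difference. Their median levels were 0.5293 RPKM in duodenum, 3.648 in cecum and 32.71 in colon. This set included ITLN, KLK1, FAM3D, CA12, SLC13A1, CLDN8, ANO5, TGM3, KRT15 and RNASE9. It also included XM_012177435, with 0 reads in duodenum, 757.1 in cecum and 4764 in colon. XM_004023180, which ends 2140 bases before XM_012177435 by position number, had 0.01007, 0.2873 and 13.07 RPKM, with 2 reads in duodenum.

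The 7 transcripts with more in duodenum were low in cecum, where none had more than 42.23 reads. XM_012168995 had 107.9 reads in duodenum, 0 in cecum and 470.2 in colon. XM_012151702 had 15.70, 0 and 1399 reads, and its colon level of 14.07 RPKM was at least 401.1-fold above the cecum with the same limit of 3 reads for a count of 0. XM_012172399 had 9.201 RPKM in duodenum, 0.2654 in cecum and 28.09 in colon, the smallest ratio to the duodenum of any member at 3.053. XM_012104526, 16727 bases further on by position number, had 0.7156, 0.03663 and 27.22 RPKM in the same order. XM_012140783, with 1.269, 0.4037 and 11.42 RPKM, was another of these, and the rest were BPIFB1 and XM_012173466.

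**Figure D3:**
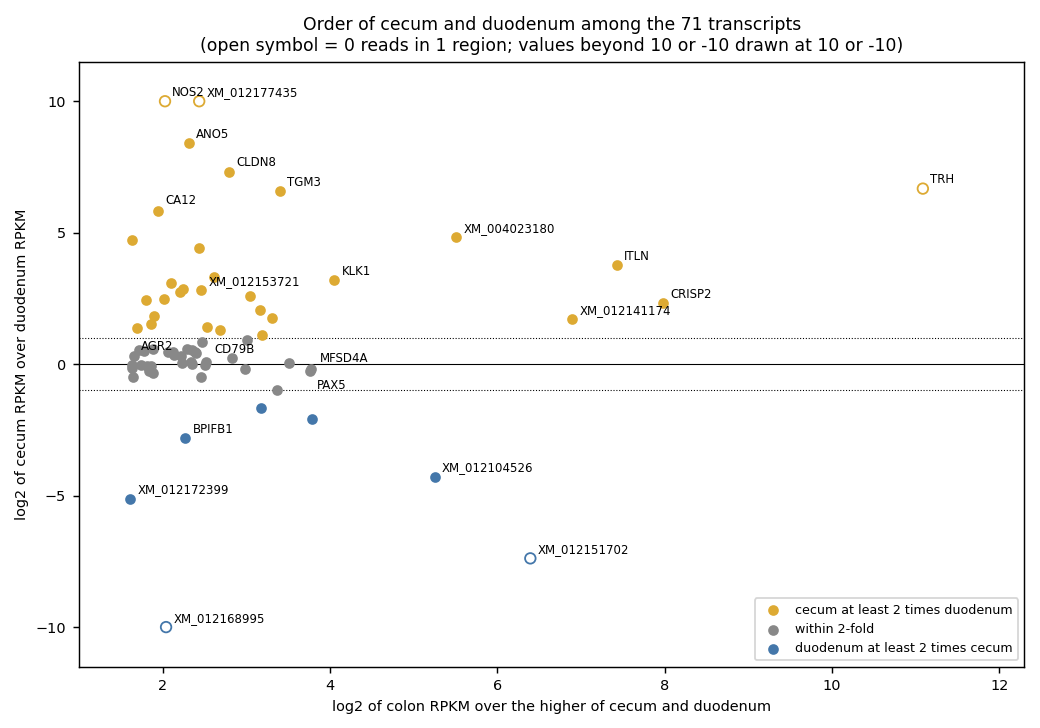
For each of the 71 transcripts, the log2 ratio of colon to the higher of cecum and duodenum (horizontal) and the log2 ratio of cecum to duodenum (vertical), with dotted lines at 2-fold and open symbols for 0 reads in 1 of these regions. Of the points, 30 lie above the upper dotted line, 34 between the lines and 7 below, and TRH, CRISP2, ITLN and XM_012141174 lie farthest to the right among transcripts with the cecum higher.

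The levels were spread over the exons of most transcripts. Of 705 exons, 676 reached 1 RPKM in a region, 664 of these were highest in colon and 586 were at least 3 times higher there than in both other regions. In 66 transcripts every such exon was highest in colon, and in 42 every one passed 3-fold. The 5 exceptions were LOC100125357, XM_012100354, XM_012128629, XM_012172399 and XM_012177435.

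LOC100125357, which RefSeq also lists as ITLN2, had 28.63 RPKM in duodenum, 33.38 in cecum and 236.3 in colon. Exons 1 and 5 held 99.5% of its colon reads, and exon 5 alone held 91.0%. Exon 5 had 68.55, 81.81 and 878.1 RPKM in duodenum, cecum and colon. Over its other 6 exons the order was turned, with 16.88 RPKM in duodenum, 20.34 in cecum and 2.059 in colon. By position number the transcript (110451387 to 110495254) starts 19014 bases after the end of ITLN (110424712 to 110432372), and exons 4 and 5 have the same lengths in both, 160 and 249 bases. RefSeq also places both genes on the same chromosome with 3 genes between them. Reads of near-identical copies may be split between such genes, so the colon level of LOC100125357 is uncertain, while ITLN itself was highest in colon in all 8 of its exons.

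XM_012094682 showed 2 levels within 1 transcript. Its first 3 exons had 24.04 RPKM in duodenum, 21.20 in cecum and 71.26 in colon, and its later 7 exons had 2.766, 0.5959 and 35.30 RPKM. Each of its 10 exons was highest in colon. XM_012173466 lies across it, and all but 2 of its colon reads, 570.4 of 572.4, fell on 3 exons that overlap XM_012094682 by 105 bases. Only 31.2% of its length was covered in colon, the lowest share of the set. With this pair and the overlapping pair XM_012108407 and XM_012102431 counted once each, 69 separate transcripts remained.

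**Figure D4:**
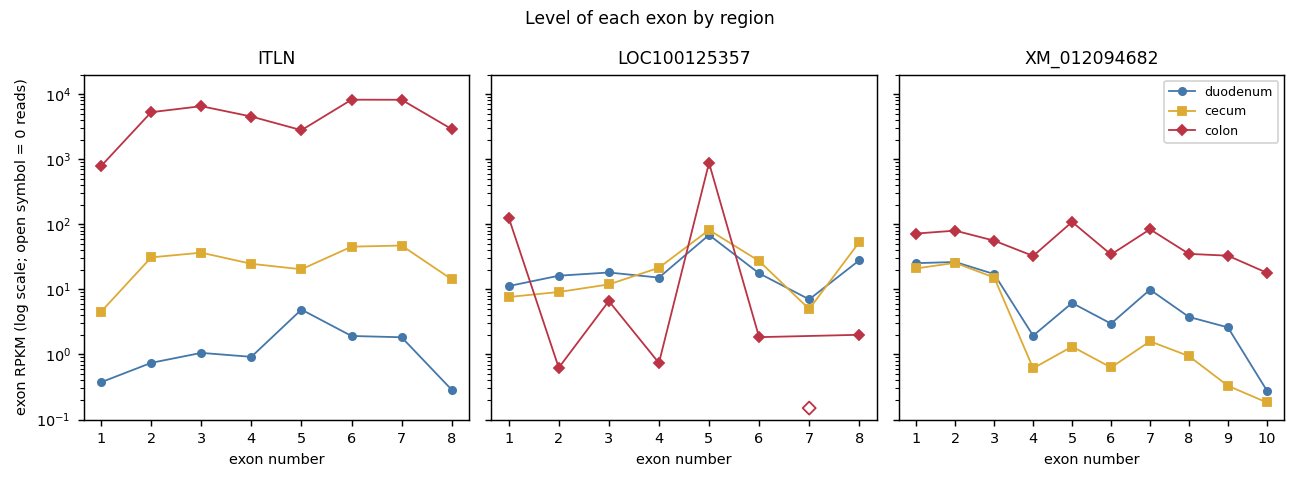
RPKM of each exon on a log axis in duodenum, cecum and colon for ITLN, LOC100125357 and XM_012094682, with an open symbol for 0 reads. The colon leads in all 8 exons of ITLN and all 10 of XM_012094682, but in LOC100125357 it leads in exons 1 and 5 alone.

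Lists of gut genes, chosen with earlier results of these data known, were matched by symbol, which could be done for part of each list. Over all 6830 symbols matched to a coding transcript, 33 (0.483%) were members. The mucus and goblet cell list had a transcript for 8 of 38 symbols, and AGR2 and KLK1 were members. Its intelectin symbols matched no transcript, so the members ITLN and LOC100125357 are outside its count and its median. The defence list matched 18 of 33 with NOS2 and CCL20 as members, the ion and water transport list 21 of 47 with CA12, and the arginine and nitrogen list 5 of 17 with NOS2 again. No member came from the 23 of 64 matched genes of glycan synthesis and sulfation, of which the rule itself left out 1, the 8 of 31 HOX and regional factors, the 15 of 23 solute carriers, the 17 of 30 hormone and enteroendocrine genes or the 9 of 31 crypt, Wnt and Notch genes. The glycan gene left out overlaps the member XM_012141174 described above and has nearly the same reads, so its locus is represented in the set. TRH was not on the hormone list, and the members SLC13A1 and MFSD4A were not on the solute carrier list. The median log2 ratio of colon to the higher other region was 0.18 over the mucus list, 0.30 over ion transport, 0.13 over glycan synthesis, -0.33 over crypt, Wnt and Notch genes, -0.46 over solute carriers and -0.62 over HOX and regional factors. It was -0.65 over defence, -0.91 over arginine and nitrogen metabolism and -1.72 over hormones, beside -0.23 over the 8783 expressed transcripts. The list medians took matched genes of any level, whereas the 8783 had at least 10 RPKM in a region.

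Markers of other cell types differed between the regions as well. Of 15 cell type lists with a matched marker, the summed level was highest in colon for 3, those of goblet cells, adipocytes and squamous epithelium. Epithelial markers (3 of 8 matched) summed to 1826, 2635 and 2052 RPKM in duodenum, cecum and colon, and EPCAM was at 582.1, 550.3 and 596.2. Goblet cell markers (2 of 7) were AGR2 and TFF3, and TFF3 had 3436, 3684 and 3847 RPKM, without a step in colon like that of AGR2. Smooth muscle markers (6 of 8) summed to 1082, 5209 and 3664 RPKM and fibroblast markers (4 of 6) to 334.5, 1153 and 590.5. Both were highest in cecum, no matched marker of either was at 0, and their part in the results was not tested. Adipocyte markers (2 of 4) summed to 6.617, 20.33 and 29.69 RPKM, with neither at 0, and their part in the results was not tested. Small intestinal enterocyte markers (4 of 7) summed to 2102 RPKM in duodenum, 4.927 in cecum and 4.43 in colon.

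Near the limits, the members with the lowest colon levels were NOS2 with 10.01, XM_012147042 with 10.08 and XM_012172485 with 10.14 RPKM. Just outside were RFLNA with 9.626, STAR with 9.534 and XM_012132908 with 9.287. The smallest ratios inside were 3.053 for XM_012172399, 3.093 for XM_004005881 and 3.108 for XM_012190463. Just outside were SSTR2 with 2.891, XM_012125284 with 2.881 and ALDH1L2 with 2.854.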

How the data were processed

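For each region the authors deposited 1 row per exon with an estimated count of reads, its RPKM, its length and the percent of that length covered. The study's methods name Bowtie2 and RSEM, the submitters' processing notes BWA and Bowtie 0.12.2, and the role of each for these files is not given in the sources used here. Exon counts were summed per transcript and divided by exon length and the read total in the file header. Exons absent from a file counted as 0. Of 83089 accessions, 8735 were named through RefSeq and 18023 more through a shared exon. A symbol with several transcripts took the one with the most reads in the marker and list comparisons, so its level can differ slightly from the member's. Ratios have exact 95% Clopper-Pearson intervals from rounded counts, which cover at most counting error. Exon sums exceed the library totals, so a read can count in more than 1 exon and the intervals can be too narrow. With 3 reads as the floor, the lowest level that could be shown was 0.1683 RPKM for the shortest member in the cecum. No p-value was computed. In the text are the 10 members highest in colon, the 10 with the largest colon ratio, the 5 highest and 5 lowest in cecum over duodenum, the 3 nearest each side of each limit, and all members on the lists. The values of 2 members are not reported here. The other named members, XM_012094682, XM_012100354, XM_012128629 and XM_012140783 were added after their values were seen. Roles were assigned from names. Members and lists were chosen with earlier results of these data known. The scripts ran in Python 3.11.15 (scipy 1.17.1, pandas 2.3.3, numpy 2.4.6, with matplotlib 3.10.9 for plots), and the calculations were tested on simulated data.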

Additional observations from a re-analysis of the deposited data

How the results depend on the processing

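The number of members, 71 as reported, changed with the joining of transcripts, the limits and the level used: it was 127 with the highest exon in place of the sum, 168 from 1 RPKM in colon, 22 from 50 RPKM, 130 at 2-fold, 39 at 5-fold, 213 with every transcript kept and 12 with transcripts that share no exon. The count with at least 2 times more in cecum than duodenum, 30 as reported, was 53 from 1 RPKM, 13 from 50 RPKM, 48 at 2-fold, 18 at 5-fold, 77 with every transcript and 8 without shared exons. Members led by colon in every exon, 66 as reported, numbered 152, 21, 114, 37, 202 and 12 in the same order. The median log2 ratio of cecum to duodenum, 0.52 as reported, was 0.163 from 1 RPKM and 1.558 without shared exons. These changes follow from which transcripts enter. Median-ratio scaling, with factors from 0.979 to 1.030, gave 73 members. Library totals without the 10 transcripts with the most reads gave 85 members, 36 of them at least 2 times higher in cecum than duodenum. Those totals were 47456395 in duodenum, 43700844 in cecum and 46333730 in colon. No direction was reversed. With at least 50 reads in cecum and duodenum together, a limit added after seeing the data, 28 members were 2-fold higher in cecum. No paired analysis was possible because each region has 1 pooled library, and for the same reason no library could be left out.

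Reads in the other regions limit single ratios. In the duodenum 21 members and in the cecum 12 had under 100 reads, while the lowest colon count was 470.2. No ratio includes variation between animals, and the position of the sample within each region cannot be told apart from the region.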

Other observations

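Several genes of the lists had more than 2 times the level of both other regions in colon without reaching the rule. GCG, the precursor of glucagon-like peptides, had 21.94 RPKM in duodenum, 33.39 in cecum and 82.91 in colon. CHST4, a sulfotransferase acting on mucin-type glycans, had 14.65, 31.39 and 66.75 RPKM, and B4GALT1 and GALNT6, both glycosyltransferases, reached 125.2 and 42.59 RPKM in colon from 52.68 and 20.06 in cecum. AQP8, a water channel, had 2.684, 8.028 and 16.20 RPKM. HOXB13, a homeobox factor of the hindgut, had 0 in duodenum, 0.0703 in cecum and 8.057 RPKM in colon, so that the level limit of 10 RPKM kept it out.

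Non-coding transcripts were outside the rule. Of these, 22 passed the same limits, 5 of them shared exons with coding transcripts that passed, and the others joined into 6. XR_001032402 had 0.128 RPKM in duodenum, 0.1446 in cecum and 21.66 in colon, a ratio of 149.8. XR_001022356 had the highest colon level, 91.25 RPKM, beside 26.16 in duodenum and 19.59 in cecum.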
